A study of Mus musculus with 9 samples.

Results

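Malat1, Neat1, Meg3, Rian, Mirg, Miat, Snhg11 and Oip5os1 (Cyrano) are long non-coding RNA genes of the mouse. These 8 genes, of 27179 gene identifiers in the deposited table, were followed by name through every library, and all 8 were among the 16749 genes tested. The set was chosen by a measured value, the lower count of Oip5os1 in spinal cord of EHP-101-treated mice than in Control cord, so values for Oip5os1, and for every one of the 8 in that comparison, are given as descriptions without a test. RNA came from the spinal cord of mice of the C57BL/6 strain, with 3 samples in each of 3 groups. EAE+EHP-101 mice had experimental autoimmune encephalomyelitis (EAE), in which immune cells attack the myelin of brain and cord as a model for multiple sclerosis, and were dosed orally with EHP-101, 20 mg/kg. EAE mice had the disease model and no EHP-101 is labelled for them, and Control mice carried neither label. No genotype other than the strain is given, and the sources used here do not give the antigen, any vehicle, the age or sex of the mice or the day of sampling.

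Long non-coding RNAs are transcripts that do not encode a protein and are longer than the small RNA classes. Malat1 and Neat1 lie side by side in the genome and act in the nucleus, Malat1 in nuclear speckles that hold splicing factors and Neat1 as the scaffold of paraspeckles. Meg3, Rian and Mirg lie in the imprinted Dlk1-Dio3 domain, where they are made from the maternal chromosome and carry microRNAs and small nucleolar RNAs. Miat and Snhg11 are transcripts of neurons in the mouse brain. Cyrano is known in mouse brain for a site that pairs extensively with the microRNA miR-7 and leads to the destruction of miR-7, a process that uses the ubiquitin ligase adaptor Zswim8.

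The miR-7 sequences and the matching stretches of Oip5os1 are shown because the counts cover only part of that transcript. MicroRNA sequences are from RefSeq (GRCm38.p6), 5′ to 3′, with the seed (bases 2 to 8) in capitals:
miR-7a-5p: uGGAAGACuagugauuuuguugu
miR-7b-5p: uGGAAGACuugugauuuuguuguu
The stretches of Oip5os1 are from its 8300-base GENCODE M21 transcript (GRCm38, plus strand), with the bases that can pair with miR-7a-5p in capitals:
extended site, chr2:119602137-119602161: ACAACAAAATCACcaatGTCTTCCA
seed match, chr2:119599961-119599971: AATGTCTTCCA
Both microRNAs share 1 seed. The extended site pairs 8 bases at the seed end and 13 bases at the 3′ end of miR-7a-5p, with 4 unpaired target bases between them. The other stretch pairs the same 8 bases, then 3 more after a gap of 5 microRNA bases. Reads were counted over 3 exon blocks of Oip5os1 (mm10 chr2:119594296-119600746, plus strand), 1551 bases in all and 18.7% of the exonic bases of GENCODE M21. The extended site begins 1391 bases past the end of these blocks, so the counts do not cover the site. GENCODE M21 has 2 transcripts of Oip5os1, and the short one ends where the counted blocks end. The counts thus describe the 5′ part of the long transcript together with the short one, and do not tell them apart. Levels of miR-7 itself were not measured, since the libraries hold poly-A selected RNA.

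**Figure D1:**
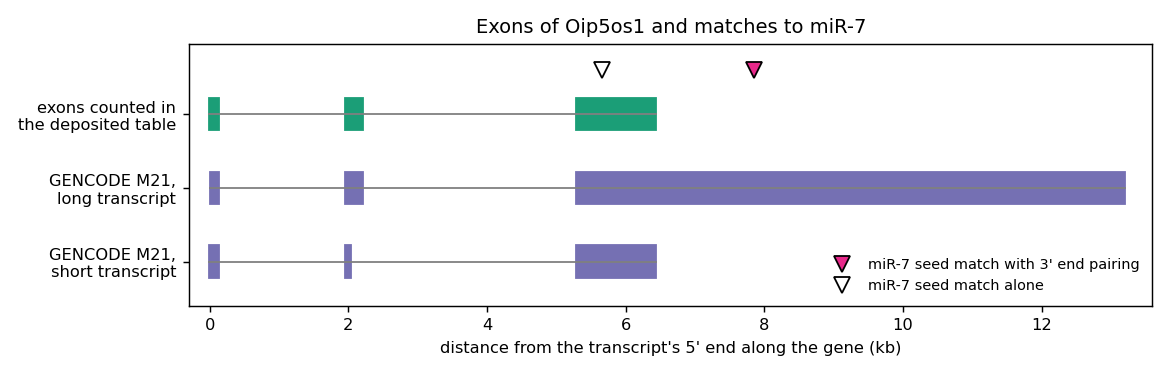
Exons of Oip5os1 against the distance from the 5′ end of the long transcript in kb, with boxes for exons and lines for introns. The counted blocks, 1551 bases in all, stop before the extended miR-7 site (filled triangle) and contain the plain seed match (open triangle).

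Library totals were 30448507 to 32661741 counts, and levels are given as CPM (counts scaled to a library size of 1e6 after TMM scaling). The first principal component of log2 CPM held 66.98% of the variance, with EAE+EHP-101 libraries at -22.2, 8.36 and 15.2, EAE libraries at 36.0 to 50.1 and Control libraries at -47.2 to -40.9. Log2 CPM was correlated with log2 gene length, after removal of each gene's mean, at -0.234 to 0.0144 in EAE+EHP-101 libraries, -0.214 to -0.142 in EAE libraries and 0.182 to 0.288 in Control libraries. With genes split by counted length into 5 bins of equal size, the shortest bin (up to 1525 bases) had a median log2 fold change of 0.22 for EAE against Control, and the longest (4622 bases or more) one of -0.20. The sum of 9 microglia and macrophage markers was 410 to 634 CPM in EAE+EHP-101, 1218 to 1668 in EAE and 317 to 405 in Control, and that of 10 neuronal markers was 6541 to 7005, 6163 to 7139 and 6839 to 7851 CPM in the same order. No marker of either list was at 0 in any group, and the neuronal, oligodendrocyte and astrocyte lists were all detected, as fits spinal cord. In tissue RNA, fewer cells of a type and less RNA per cell cannot be told apart.

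Of the 8 genes, Meg3, Snhg11, Malat1, Neat1, Rian and Miat stood among the 7 most counted of 826 long non-coding RNA genes tested, at ranks 1, 2, 4, 5, 6 and 7 by mean CPM. Oip5os1 ranked 24 and Mirg 50. Per kb of counted length, Snhg11 and Meg3 led in every group, at 286 ± 25.4 and 274 ± 22.4 CPM per kb in EAE+EHP-101, 225 ± 24.9 and 208 ± 32.5 in EAE and 320 ± 61.7 and 296 ± 67.9 in Control (SD, n = 3 each). The ranges of mean ± SD of those 2 overlapped in every group. Neat1 followed at 168 ± 11.5, 164 ± 13.4 and 172 ± 50.6 CPM per kb, then Rian at 132 ± 2.63, 119 ± 10.1 and 140 ± 9.46, then Malat1 at 110 ± 2.40, 115 ± 46.0 and 68.0 ± 6.998, each in EAE+EHP-101, EAE and Control. Next came Miat and Oip5os1, which stood in that order in EAE+EHP-101 (49.9 ± 3.49 and 26.7 ± 3.92 CPM per kb) and EAE (36.9 ± 5.93 and 29.2 ± 6.58). In Control, Oip5os1 at 62.3 ± 4.66 CPM per kb was above Miat at 51.7 ± 13.7, within their spread, and close to Malat1. Mirg was lowest in all groups, at 17.6 ± 2.35, 14.4 ± 1.17 and 14.2 ± 3.62 CPM per kb. The ranges of mean ± SD of neighbours in this order also overlapped for Neat1 and Rian, and Malat1 and Oip5os1, in Control, and for Meg3 and Neat1, Rian and Malat1, and Miat and Oip5os1 in EAE.

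**Figure D2:**
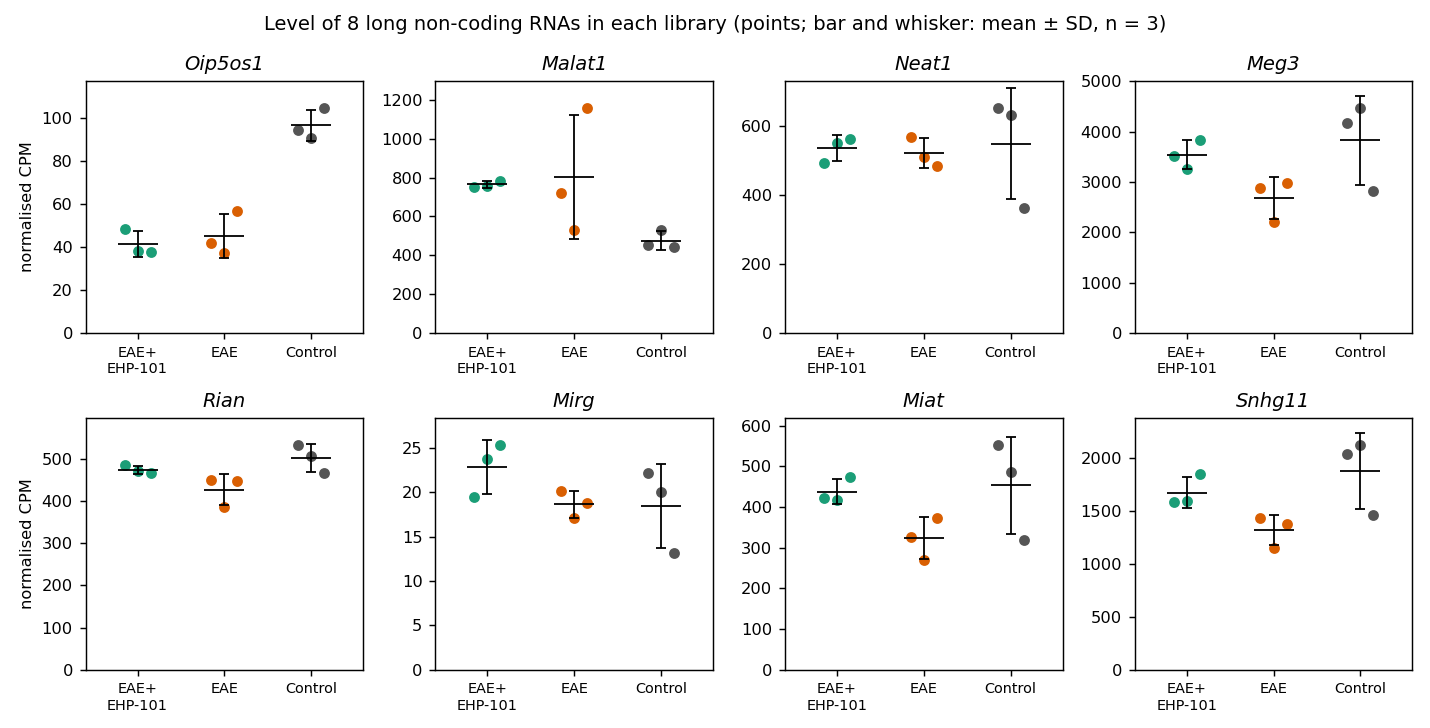
Normalised CPM of each gene in each library (points, replicates 1 to 3 left to right in each group), with the mean and SD of 3 libraries per group. Oip5os1 is at 37.3 to 56.8 CPM in all 6 libraries with EAE and at 90.7 to 105 CPM in Control libraries, and Control replicate 3 is the lowest Control point for the 7 other genes.

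Oip5os1 was at less than its Control level in both groups with EAE, whether or not EHP-101 was given. Its level was 48.4, 38.3 and 37.6 CPM in EAE+EHP-101 libraries 1 to 3, 41.9, 37.3 and 56.8 CPM in EAE libraries, and 94.6, 90.7 and 105 CPM in Control libraries. The highest library with EAE reached 56.8 CPM and the lowest Control library 90.7 CPM, so these did not overlap, while EAE+EHP-101 and EAE did. The log2 fold change was -1.22 (SE 0.14) for EAE+EHP-101 against Control, a level 2.33-fold lower, and -1.09 (SE 0.14) for EAE against Control, 2.13-fold lower. Between EAE+EHP-101 and EAE it was -0.13 (SE 0.14). Both comparisons with Control share the same 3 Control libraries. Counts behind these levels were 1173 to 1514 in EAE+EHP-101, 1165 to 1822 in EAE and 2866 to 3195 in Control.

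Oip5os1 had the lowest log2 fold change of the 826 long non-coding RNA genes for EAE+EHP-101 against Control. The gene was chosen by that comparison, so this rank is no separate result. For EAE against Control, which shares the Control libraries, 18 of the 826 were lower, and none of the 34 whose log2 CPM averaged at least 5. Its direction was against the trend with counted length, at 1551 counted bases. With that trend removed the log2 fold changes were -1.33 (SE 0.15) for EAE+EHP-101 against Control and -1.23 (SE 0.15) for EAE against Control. The longest GENCODE M21 transcript of Oip5os1 has 8300 bases, above the 4622 bases where the longest bin begins. A trend with transcript length was not tested. Microglia and macrophage markers had a higher sum in EAE than in EAE+EHP-101, and Oip5os1 overlapped between these groups. The sum of 7 neutrophil markers also overlapped between them, at 36.6 to 61.4 CPM in EAE+EHP-101 and 35.9 to 58.0 CPM in EAE. It was 11.9 to 18.7 CPM in Control. These markers did not move together between EAE+EHP-101 and EAE. Csf3r was lower, at 17.8 CPM in EAE+EHP-101 and 36.0 CPM in EAE (log2 -1.02, SE 0.22, edgeR adjusted p = 0.0209). S100a8, S100a9, Retnlg and Mmp8 had higher means in EAE+EHP-101, with log2 fold changes of 0.76 to 1.21, and were not called. The part of either marker list in the Oip5os1 values was not tested.

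The genes beside Oip5os1 were Chp1, which encodes a calcineurin B homologous protein, and Oip5, a centromere protein gene on the opposite strand. Chp1 averaged 119 ± 6.25 CPM in EAE+EHP-101, 121 ± 5.91 in EAE and 131 ± 12.9 in Control (SD, n = 3 each), and was not called in any comparison. Oip5 was low, at 0.578 ± 0.0675, 0.624 ± 0.182 and 0.303 ± 0.224 CPM, and was not called either.

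Over the 9 libraries, the genes whose log2 CPM was most like that of Oip5os1, of 13715 whose log2 CPM averaged at least 1, were Ubxn2a (Pearson r = 0.995), Sh3bgrl2 (0.993), Hspa4l (0.992), Vcpip1 (0.991) and Spred1 (0.991). These values are descriptions, and their points share the 3 groups and the step between Control and EAE. Hspa4l, a chaperone of the Hsp110 family, averaged 181 CPM in EAE+EHP-101, 182 CPM in EAE and 294 CPM in Control. Ubxn2a, a UBX-domain protein, averaged 66.4, 68.9 and 108 CPM in the same order, and Spred1, an inhibitor of Ras signalling, 70.4, 73.9 and 110 CPM. Each had a smaller log2 fold change than Oip5os1 for EAE against Control, at -0.69 (SE 0.08) for Hspa4l, -0.64 (SE 0.10) for Ubxn2a and -0.58 (SE 0.08) for Spred1.

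Genes described as targets of miR-7 were compared next, with genes of the microRNA pathway, from lists chosen with earlier results of these data known. Calls are those of edgeR's quasi-likelihood test at a Benjamini-Hochberg adjusted p under 0.05. For EAE against Control, 2 of 14 described miR-7 targets rose and 1 fell, with a median log2 fold change of 0.02, against 0.01 over all genes tested. The share called was 21.4% of the list, under the 37% of all genes tested (20.2% higher and 16.7% lower). Rela, a subunit of NF-kappa B, was at 33.9 ± 2.01 CPM in EAE and 25.7 ± 1.14 CPM in Control (log2 0.40, SE 0.07, adjusted p = 0.000867). Irs2, an adaptor of insulin signalling, was at 31.9 ± 4.62 CPM in EAE and 44.7 ± 5.03 CPM in Control (log2 -0.48, SE 0.12, adjusted p = 0.0105). Cnot8, of the deadenylase complex, rose by log2 0.19 (SE 0.06, adjusted p = 0.0297), and that call was lost with the length trend removed (log2 0.10, adjusted p = 0.196). None of the 14 was called between EAE+EHP-101 and EAE. For EAE+EHP-101 against Control Rela was higher (log2 0.26, SE 0.07, adjusted p = 0.0220) and Egfr, a growth factor receptor, lower (log2 -0.40, SE 0.11, adjusted p = 0.0285), and 0 of the 14 were called without EAE+EHP-101 replicate 2 or without EAE+EHP-101 replicate 3.

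Of 14 microRNA pathway genes, 8 fell in EAE against Control and none rose, with a median log2 fold change of -0.22. Those 8 are 57.1% of the list, against 16.7% of all genes tested called lower. Ago2 and Ago3 are Argonaute genes, whose proteins hold the microRNA. Ago2 was at 41.4 ± 4.44 CPM in EAE and 72.7 ± 6.27 CPM in Control (log2 -0.81, SE 0.10, adjusted p = 0.000167), and Ago3 at 26.5 ± 3.70 and 44.7 ± 1.27 CPM in the same order (log2 -0.75, SE 0.09, adjusted p = 0.000196). Tnrc6b and Tnrc6a, scaffolds of the silencing complex, each fell by 0.38 on the log2 scale (adjusted p = 0.000918 and 0.00127). With the length trend removed only Ago2 (log2 -0.56, adjusted p = 0.000480) and Ago3 (log2 -0.51, adjusted p = 0.000732) of the 14 were still called, Tnrc6b turned to 0.07 (adjusted p = 0.402), and without Control replicate 3 the calls were 12 lower and 1 higher. None of the 14 was called between EAE+EHP-101 and EAE. Zswim8, looked up for its part in the destruction of miR-7 after the values were seen, was at 124 ± 5.72 CPM in EAE+EHP-101, 113 ± 8.52 in EAE and 127 ± 24.1 in Control and was not called. Cdr1os, another long non-coding RNA singled out in the same way, was at 5.13 ± 0.342, 4.94 ± 0.432 and 6.06 ± 0.909 CPM and was not called either.

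For EAE against Control, 1 of the 7 tested genes, Malat1, rose, and 4, Meg3, Rian, Miat and Snhg11, fell, while Neat1 and Mirg were not called. Over all genes tested, 37% were called in that comparison, 20.2% higher and 16.7% lower, and over the 826 long non-coding RNA genes 54 were higher and 97 lower. Between EAE+EHP-101 and EAE, where 5.24% of genes were called, 0.43% higher and 4.81% lower, none of the 7 was called. In all treated libraries 4 of the 7 lay above all EAE libraries, as did 10.7% of all genes tested. For EAE+EHP-101 against Control, where the 8 genes are described and not tested, 19.8% of all genes were called, 9.96% higher and 9.82% lower. With the length trend removed, Malat1 was the only one of the 7 called for EAE against Control.

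**Figure D3:**
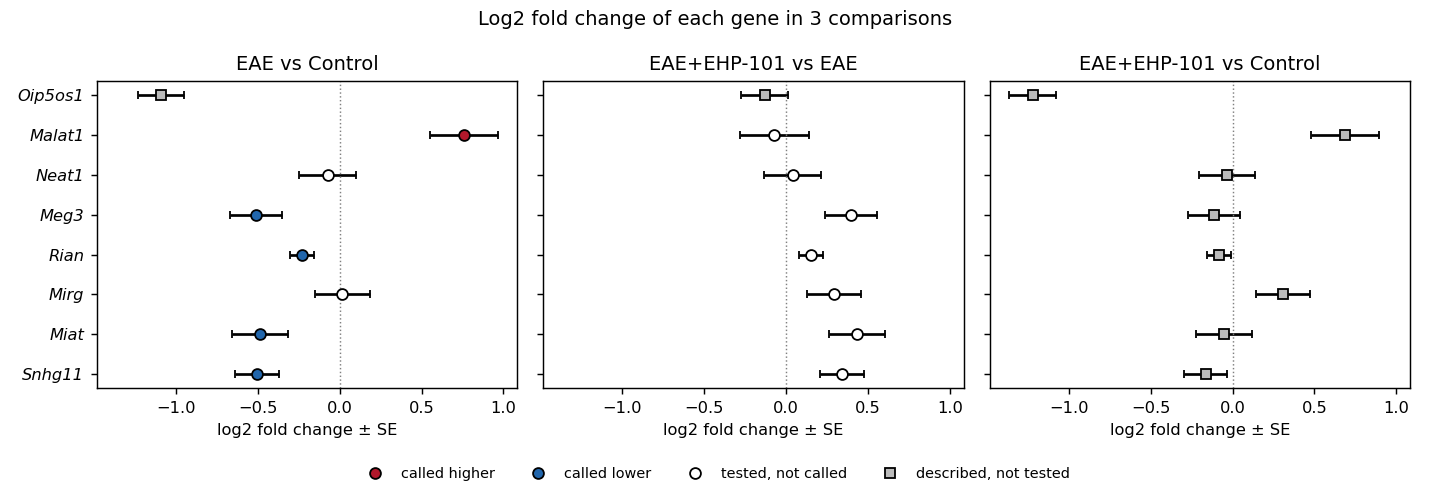
Log2 fold change with its SE for each gene, in panels for EAE set against Control, treated mice set against EAE, and treated mice set against Control. Red and blue circles are genes called higher and lower (edgeR, adjusted p under 0.05), white circles were tested and not called, and grey squares are descriptions without a test.

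Malat1 (mm10 chr19:5795690-5802671, minus strand, 1 exon block of 6982 bases) had 754, 756 and 784 CPM in EAE+EHP-101 libraries, 721, 532 and 1158 CPM in EAE libraries, and 453, 531 and 441 CPM in Control libraries. All EAE libraries were above all Control libraries, but EAE replicate 2 only by about 1 CPM, and EAE replicate 3 stood far above the others. The EAE mean was 1.69-fold the Control mean (log2 0.76, SE 0.21, adjusted p = 0.0152). Without EAE replicate 3 the log2 value was 0.39, and without Control replicate 1 the adjusted p was 0.0525 (log2 0.69). With the length trend removed it was 0.97 (SE 0.20, adjusted p = 0.00452), since Malat1 is long and rose against the trend. EAE+EHP-101 did not differ detectably from EAE (log2 -0.07, SE 0.21, adjusted p = 0.902), with a value of 0.29 without EAE replicate 3. Described against Control, the treated level was 1.61-fold (log2 0.69, SE 0.21), with no overlap. Malat1 ends in a triple helix and not in a usual poly-A tail, so a poly-A selected library holds the part of it that the selection kept.

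Neat1 (mm10 chr19:5842302-5845478, minus strand) was counted over 3177 bases, 15.3% of the GENCODE M21 exonic bases, which is the part that the short and long isoforms share. It had 493, 550 and 561 CPM in EAE+EHP-101, 567, 509 and 484 CPM in EAE and 651, 630 and 362 CPM in Control. Control replicate 3 lay under every other library and the groups overlapped. The log2 fold change was -0.07 (SE 0.17, adjusted p = 0.765) for EAE against Control, and without Control replicate 3 it was -0.33 (adjusted p = 0.00766). Between EAE+EHP-101 and EAE it was 0.04 (SE 0.17, adjusted p = 0.939). The ratio of Malat1 to Neat1 CPM was 1.53, 1.38 and 1.40 in EAE+EHP-101, 1.27, 1.05 and 2.39 in EAE, and 0.696, 0.843 and 1.22 in Control, so that EAE and Control overlapped and EAE+EHP-101 stood above Control.

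Frmd8, the coding gene beside Neat1, was at 73.8 ± 7.58 CPM in EAE and 65.7 ± 3.17 CPM in Control and was not called. Of 13 paraspeckle proteins, 2 fell in EAE against Control, Tardbp (log2 -0.15, SE 0.05, adjusted p = 0.0431) and Hnrnph3 (log2 -0.25, SE 0.09, adjusted p = 0.0477), and none rose. The share called was 15.4% of the list, under the 37% of all genes tested. Both calls were lost without EAE replicate 1 or 2, where 0 of 13 were called. Tardbp, with 7454 counted bases, turned to 0.09 with the length trend removed (adjusted p = 0.262), while Hnrnph3 was still lower (log2 -0.32, adjusted p = 0.0227). The scaffold-binding proteins Sfpq and Nono were at 181 ± 5.44 and 69.9 ± 1.99 CPM in EAE and 173 ± 11.5 and 66.6 ± 4.74 CPM in Control. Of 13 nuclear speckle and splicing proteins, Pnn (log2 -0.25, SE 0.06, adjusted p = 0.0108), Son (log2 -0.23, SE 0.06, adjusted p = 0.0161), Celf4 and Celf3 fell and Srsf2 rose (log2 0.16, SE 0.05, adjusted p = 0.0268). The share called was 38.5% of this list, near the 37% of all genes tested. Only 2 of these 13 were called, both lower, with the length trend removed, without Control replicate 2 or without EAE replicate 2, and 3 without EAE replicate 3, against 8 without Control replicate 3. The 2 called with the trend removed were Pnn and Celf3, and Son, with 9278 counted bases, turned to 0.07 (adjusted p = 0.366). Between EAE+EHP-101 and EAE none of the 26 was called.

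Genes most like Malat1 over the 9 libraries were the metabolic enzyme gene Mdh2 (r = 0.926), Bcl7b (0.921), Ndufv1 of respiratory complex I (0.912), Spsb3 (0.909) and Armcx6. They moved far less than Malat1, with Mdh2 at 312 CPM in EAE+EHP-101, 309 CPM in EAE and 283 CPM in Control.

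Meg3 (mm10 chr12:109540996-109571729, plus strand, 12906 counted bases in 11 blocks) was the most counted long non-coding RNA. It had 3514, 3266 and 3841 CPM in EAE+EHP-101, 2886, 2206 and 2970 CPM in EAE, and 4178, 4467 and 2826 CPM in Control. Control replicates 1 and 2 were the highest of all libraries and Control replicate 3 lay among the EAE libraries. The log2 fold change for EAE against Control was -0.51 (SE 0.16, adjusted p = 0.0269). That call was lost without Control replicate 1 (adjusted p = 0.0649), Control replicate 2 (0.0895) or EAE replicate 2 (0.0807), and with the length trend removed, where the value was -0.13 (adjusted p = 0.50). All treated libraries exceeded all EAE libraries (log2 0.40, SE 0.16), but the adjusted p was 0.229. Described against Control the treated value was -0.11 (SE 0.16).

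Rian (mm10 chr12:109603945-109661716, plus strand) overlaps 2 microRNA and 7 small nucleolar RNA genes of those counted in the deposited data, and 3584 bases of it were counted. RefSeq places 3 microRNA hairpins inside it. Its level was 485, 472 and 467 CPM in EAE+EHP-101, 450, 386 and 447 CPM in EAE, and 534, 507 and 466 CPM in Control. All EAE libraries were below all Control libraries and below all treated libraries. The log2 fold change was -0.23 (SE 0.07, adjusted p = 0.0278) for EAE against Control and 0.15 (SE 0.07, adjusted p = 0.350) for EAE+EHP-101 against EAE. The first call was lost without Control replicate 1 (adjusted p = 0.0572), without EAE replicate 2 (0.0618) and with the length trend removed (log2 -0.18, adjusted p = 0.0744). Over all 14 alternative settings, this call was kept in 9 and lost in 5.

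Mirg (mm10 chr12:109734981-109749458, plus strand), which carries most of the microRNAs inside these 3 transcripts, was counted over 1300 bases, 17.8% of its GENCODE M21 exonic bases. It had 19.4, 23.7 and 25.4 CPM in EAE+EHP-101, 20.1, 17.1 and 18.8 CPM in EAE, and 22.2, 20.0 and 13.2 CPM in Control. The groups overlapped, with log2 fold changes of 0.02 (SE 0.17, adjusted p = 0.947) for EAE against Control and 0.29 (SE 0.16, adjusted p = 0.436) for EAE+EHP-101 against EAE. The first of these changed sign when Control replicate 3 was left out (log2 -0.21). RefSeq places 19 mature microRNAs inside Mirg, 6 inside Rian and 3 inside Meg3. The mature microRNAs inside Mirg have 18 seeds, because 1 pair shares its seed, and that pair is shown with the seed in capitals:
miR-453: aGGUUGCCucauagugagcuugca
miR-496a-5p: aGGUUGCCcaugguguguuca
Mature microRNAs were not measured, and the counts of their hosts give no value for them.

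The 3 transcripts of the Dlk1-Dio3 domain did not keep 1 ratio. The ratio of Meg3 to Mirg CPM was 181, 138 and 151 in EAE+EHP-101, 143, 129 and 158 in EAE and 188, 223 and 215 in Control, so each Control library lay above every library with EAE. For Meg3 to Rian it was 7.25, 6.93 and 8.23 in EAE+EHP-101, 6.42, 5.72 and 6.65 in EAE and 7.83, 8.81 and 6.06 in Control, and EAE overlapped with Control. Counted length differs between these genes, from 1300 bases in Mirg to 12906 in Meg3. For EAE against Control, the log2 fold changes were -0.51 for Meg3, 0.02 for Mirg and -0.23 for Rian. With the length trend removed they were -0.13, -0.16 and -0.18 in the same order, so they lay closer together. The ratios themselves were not recomputed without the trend, and the part of length in them was not tested.

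Dlk1, the paternally expressed coding gene that opens the domain and encodes a Notch-like transmembrane protein, was at 63.6 ± 5.33 CPM in EAE+EHP-101, 55.5 ± 2.85 CPM in EAE and 80.1 ± 6.95 CPM in Control (SD, n = 3 each). It fell in EAE against Control (log2 -0.53, SE 0.08, adjusted p = 0.000553), also with the length trend removed (log2 -0.41, adjusted p = 0.00181), and was not called between EAE+EHP-101 and EAE (log2 0.20, adjusted p = 0.241). Rtl1, a retrotransposon-derived gene on the opposite strand, was at 2.55 ± 0.691 CPM in EAE and 3.60 ± 1.19 CPM in Control and was not called (adjusted p = 0.145). Begain and Wdr25 were not called either, so 1 of the 4 tested coding genes listed with the domain fell.

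Among 19 imprinted genes elsewhere in the genome, 8 fell and 1 rose in EAE against Control, with a median log2 fold change of -0.26. The share called was 47.4% of the list, against 37% of all genes tested. Peg3, a zinc finger gene, was at 258 ± 48.5 CPM in EAE and 486 ± 52.96 CPM in Control (log2 -0.91, SE 0.14, adjusted p = 0.000537). Zdbf2 was at 36.5 ± 1.35 CPM in EAE and 57.0 ± 4.97 CPM in Control (log2 -0.64, SE 0.07, adjusted p = 9.9e-05), and Plagl1, a zinc finger regulator of growth, at 29.3 ± 1.10 and 39.6 ± 0.905 CPM (log2 -0.44, SE 0.06, adjusted p = 0.000444). The gene that rose was the growth factor Igf2, at 57.9 ± 17.1 CPM in EAE and 14.7 ± 5.26 CPM in Control (log2 1.98, SE 0.31, adjusted p = 0.000717). With the length trend removed 7 were still lower and 1 higher, and between EAE+EHP-101 and EAE none of the 19 was called. Fibroblast and pericyte markers, 7 in all, summed to 72.5 to 103 CPM in EAE+EHP-101, 182 to 196 CPM in EAE and 61.04 to 86.2 CPM in Control; their part in the Igf2 value was not tested.

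Snhg11 (mm10 chr2:158375638-158386145, plus strand, 5864 counted bases) had 1583, 1596 and 1848 CPM in EAE+EHP-101, 1433, 1157 and 1377 CPM in EAE, and 2041, 2129 and 1464 CPM in Control. Every EAE library lay below every library of the other groups, with EAE replicate 1 and Control replicate 3 the closest. The log2 fold change was -0.51 (SE 0.13, adjusted p = 0.0119) for EAE against Control, a level 1.42-fold lower, and this call was kept with each library left out in turn. It was lost with the length trend removed (log2 -0.33, SE 0.12, adjusted p = 0.0715). Set against EAE, the EAE+EHP-101 value was 0.34 (SE 0.13, adjusted p = 0.214).

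Miat (mm10 chr5:112213228-112228948, minus strand, 8760 counted bases) had 421, 418 and 473 CPM in EAE+EHP-101, 327, 270 and 374 CPM in EAE, and 553, 486 and 320 CPM in Control. Control replicate 3 again fell within the EAE range, and all treated libraries were above all EAE libraries. The log2 fold change for EAE against Control was -0.49 (SE 0.17, adjusted p = 0.0448), the weakest of the 5 calls. It was lost without Control replicate 1 (adjusted p = 0.137), Control replicate 2 (0.108), EAE replicate 1 (0.0937) or EAE replicate 2 (0.130), and with the length trend removed (log2 -0.21, adjusted p = 0.365). Over all 14 alternative settings, this call was kept in 5 and lost in 9. The value for EAE+EHP-101 against EAE was 0.43 (SE 0.17, adjusted p = 0.222).

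Meg3, Snhg11, Miat and Rian varied together. Over the 9 libraries, log2 CPM of Meg3 had a Pearson r of 0.980 with Snhg11, 0.960 with Miat and 0.908 with Rian, but 0.559 with its domain neighbour Mirg, -0.08 with Malat1 and 0.406 with Oip5os1. These are descriptions over libraries that share groups and the length trend. Among 13715 genes, the most like Meg3 was Pitpnm2 (r = 0.995), a phosphatidylinositol transfer protein gene, then Pkd1, which encodes polycystin. Snhg11 was most like Kansl3 (0.984), with Meg3 also among its first 5, Miat most like Mir124a-1hg (0.978), host of the neuronal microRNA miR-124, and Rian most like the Notch ligand gene Jag2 (0.993) and the vascular growth factor gene Vegfa (0.985). Of 10 neuronal markers, 5 fell and none rose in EAE against Control, with a median log2 fold change of -0.16, where 16.7% of all genes tested fell. Of 8 endothelial markers, 7 fell and none rose in that comparison, and their sum was 170 to 209 CPM in EAE+EHP-101, 94.3 to 156 CPM in EAE and 187 to 301 CPM in Control. Of 6 tested Hox genes that mark the level of the cord, 2 fell and none rose, Hoxc9 at 3.53 ± 1.31 CPM in EAE and 9.81 ± 2.63 CPM in Control, and Hoxc10 at 0.284 ± 0.182 and 2.87 ± 1.80 CPM in the same order. The part of these markers in the values of the 8 genes was not tested. Beside Snhg11, Ralgapb, of a Ral GTPase activating complex, also fell (log2 -0.37, SE 0.06, adjusted p = 0.00110), and Snhg17 was not called (log2 -0.07). Beside Miat, the crystallin gene Cryba4 was at 2.68 ± 0.0838 CPM in EAE and 0.595 ± 0.0910 CPM in Control (log2 2.16, SE 0.28, adjusted p = 0.000235), the opposite direction to Miat.

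**Figure D4:**
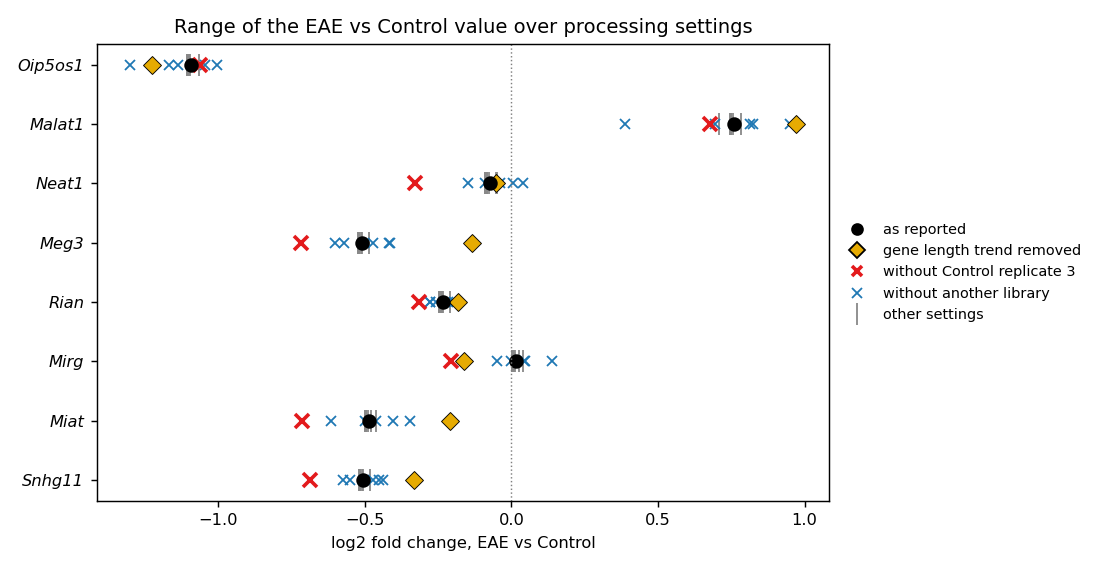
Log2 fold change for EAE against Control of each gene as reported (black), with the length trend removed (yellow diamonds), with Control replicate 3 left out (red crosses), with another library left out (blue crosses) and under the other settings (grey bars). Oip5os1 stays between -1.30 and -1.003 and Malat1 between 0.39 and 0.97, whereas Meg3 ranges from -0.72 to -0.13.

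Host genes of small nucleolar RNAs other than Snhg11 were counted next. These transcripts carry small nucleolar RNAs in their introns, and 9 of 16 rose in EAE against Control and none fell, with a median log2 fold change of 0.32 against 0.01 over all genes. Those 9 are 56.25% of the list, against 20.2% of all genes tested called higher. Snhg20 was at 14.1 ± 2.12 CPM in EAE and 9.03 ± 0.921 CPM in Control (log2 0.65, SE 0.12, adjusted p = 0.00220), and Snhg1 at 11.6 ± 0.402 and 8.31 ± 0.880 CPM (log2 0.48, SE 0.10, adjusted p = 0.00281). Snhg6 (log2 0.54, SE 0.14, adjusted p = 0.0106) and Epb41l4aos (log2 0.71, SE 0.19, adjusted p = 0.0138) followed. With the length trend removed none of the 16 was called and their median was 0.14, and the 16 genes have a median counted length of only 763 bases (407 to 3172), against 5864 for Snhg11. The number called was 5 without Control replicate 1, 2 without Control replicate 2, and 3 without EAE replicate 1 or without EAE replicate 2. None was called between EAE+EHP-101 and EAE.

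**Figure D5:**
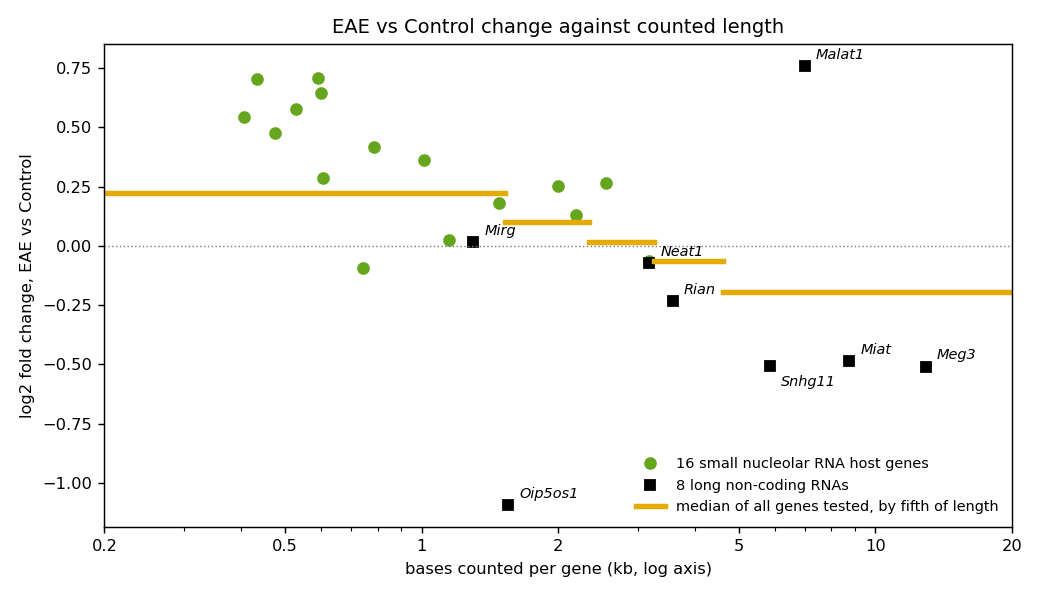
Log2 fold change for EAE against Control plotted against counted length in kb (log axis) for the 8 long non-coding RNAs (black squares) and 16 small nucleolar RNA host genes (green), with the median of all genes tested in each of 5 bins of length (yellow lines). Oip5os1 and Malat1 lie on the opposite side of 0 from the median of genes of their counted length, and Meg3, Miat and Snhg11 lie on the same side.

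The median log2 fold change of 20 other well-known long non-coding RNAs was -0.06 for EAE against Control, and none rose. Of these 20, 4 fell (20%, near the 16.7% of all genes tested). These were Kcnq1ot1 (log2 -0.55, SE 0.09, adjusted p = 0.00125), an imprinted silencing RNA, Peg13 (log2 -0.38, SE 0.08, adjusted p = 0.00415), Sox2ot (log2 -0.30, SE 0.08, adjusted p = 0.0118), which spans the Sox2 gene, and Ftx (log2 -0.22, SE 0.08, adjusted p = 0.0419), of the X inactivation centre. Peg13 and Sox2ot were still called with the length trend removed (adjusted p = 0.0237 and 0.0181), while Kcnq1ot1, with 83437 counted bases, turned to 0.29 (adjusted p = 0.0818) and Ftx to 0.02. For EAE+EHP-101 against EAE, Sox2ot was at 160 ± 10.2 and 130 ± 3.92 CPM (log2 0.30, SE 0.08, adjusted p = 0.0501) and Kcnq1ot1 at 15.3 ± 0.988 and 11.9 ± 0.836 CPM (log2 0.36, SE 0.10, adjusted p = 0.0534), and neither was called.

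Genes of the p53 response were counted as well, since Meg3 is known in human cells to raise p53 activity. Of 11, Bax (log2 0.61, SE 0.07, adjusted p = 9.9e-05), Phlda3 (log2 0.38, SE 0.06, adjusted p = 0.00118) and Gadd45a (log2 0.35, SE 0.10, adjusted p = 0.0197) rose in EAE against Control and Zmat3 fell (log2 -0.28, SE 0.06, adjusted p = 0.00519). These 4 are 36.4% of the list, near the 37% of all genes called. With the length trend removed 2 of the 11 were called, both higher. None was called between EAE+EHP-101 and EAE.

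Across all 8 genes, their summed share of a library's counts was 0.733%, 0.723% and 0.814% in EAE+EHP-101, 0.653%, 0.508% and 0.689% in EAE, and 0.841%, 0.885% and 0.584% in Control. Meg3 and Snhg11 make up most of this sum. Control replicate 3 lay among the EAE libraries in it, and every treated library lay above every EAE library. The 4 genes above EAE in all treated libraries (10.7% of all genes were), Meg3, Miat, Rian and Snhg11, had unadjusted p-values of 0.0289, 0.0272, 0.0638 and 0.0254 (edgeR, n = 3 each) and did not pass the adjustment over 16749 genes, of which 2707 had an unadjusted p under 0.05.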

How the data were processed

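Per the labels' protocols, poly-A selected, stranded libraries were made from 1 µg of total RNA of spinal cord and sequenced as single-end 50 bp reads. The deposited table gives read counts per gene, not normalised, with exon coordinates and summed exon length per the file headers. Per the submitters' processing notes, which give no roles, the tools were featureCounts 1.6.1, HISAT2 2.1.0, Trimmomatic 0.36 and DESeq2 1.20.0, and the build was mm10. Whether counting used strand or reads with several matches is not given in the sources used here. That bears on Neat1, which overlaps 1 gene on the other strand, and on Meg3, Rian and Mirg, which overlap small RNA genes. Over the 9 libraries the overlapping genes held 0 counts for Neat1 and for Meg3. They held 2037 counts beside 132068 in Rian, and 502 beside 5645 in Mirg.

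The 8 members, the gene lists and the tests were chosen with earlier results of these data known. Symbols came from RefSeq (GRCm38.p6) for 25275 of 27179 identifiers, and identifiers without a symbol held 0.311% to 0.619% of a library's counts. Genes were kept by filterByExpr of edgeR 4.0.16 (R 4.3.3), which left 16749. Libraries were scaled by TMM, and the quasi-likelihood model had 1 mean per group over 9 libraries (prior degrees of freedom 5.28). A gene was called at a Benjamini-Hochberg adjusted p under 0.05 over all genes tested, and SE is the absolute log2 fold change over the root of F. Hence a p-value reflects the spread among the samples of this series, which it calls biological replicates. Libraries of 1 group differed by more than counting noise (chi-square over its degrees of freedom, 6.55 to 26.7), and each counts as 1 sample.

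Named genes were the 8 members, up to 4 genes of smallest p per list described, the nearest tested gene on each side of a member, and the 5 genes most correlated with Oip5os1 or with a called member. A few genes that this rule selects are not reported here. Sfpq, Nono, Zswim8 and Cdr1os were named after their values were seen. Positions in Oip5os1 were read from GENCODE M21 transcripts, where it carries the name 1700020I14Rik. The pipeline was tested on simulated data. Alternatives were other scalings, the Wald test of DESeq2 1.42.0, no filter, only the 2 groups compared, a replicate block, removal of each library's trend with gene length, and leaving out each library.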

Additional observations from a re-analysis of the deposited data

How the results depend on the processing

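For EAE against Control, the 5 of 7 genes called became 3 with library totals, 3 with only the 2 groups compared and 1 with the length trend removed, and 1 to 6 with a library left out. For EAE+EHP-101 against EAE the count of 0 became 1 (Miat, adjusted p = 0.0489) with only the 2 groups compared, and was 0 with each library left out. The number of all genes called with a library left out was 4378 to 7095 for EAE against Control (6191 with all), 370 to 833 for EAE+EHP-101 against EAE (877 with all) and 629 to 3739 for EAE+EHP-101 against Control (3314 with all), where removing the length trend gave 1553. The cause of these shifts was not tested.

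Among the 7 tested genes, values of a tested comparison changed sign in 8 cases, none of them a called value. For EAE against Control, Mirg was at -0.16 with the length trend removed, -0.21 without Control replicate 3, -0.05 without EAE replicate 1 and -0.0022 without EAE replicate 3, and Neat1 was at 0.0387 without Control replicate 1 and 0.0065 without Control replicate 2. For EAE+EHP-101 against EAE without EAE replicate 3, Malat1 was at 0.29 and Neat1 at -0.0039. With a library left out, these values ranged from -0.21 to 0.14 for Mirg and -0.33 to 0.0387 for Neat1 (EAE against Control), and from -0.28 to 0.29 for Malat1 and -0.0039 to 0.11 for Neat1 (EAE+EHP-101 against EAE). Oip5os1 ranged from -1.36 to -1.17 for EAE+EHP-101 against Control, -1.30 to -1.003 for EAE against Control and -0.26 to 0.07 for EAE+EHP-101 against EAE. Untested values for treated mice against Control also crossed 0, up to 0.17 for Meg3 and 0.16 for Miat with the length trend removed and up to 0.09 for Neat1 with a library left out. With that trend removed, the called list genes Kcnq1ot1 (0.29), Tardbp (0.09), Son (0.07), Tnrc6b (0.07) and Ftx (0.02) turned for EAE against Control.

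Nothing in the labels says that replicate numbers pair the samples. Of 9 same-numbered pairs, 1 had a correlation of deviations above 0.1, in a range of -0.187 to 0.123. Differently numbered pairs reached 0.246, so this measure cannot decide whether samples were paired. With the replicate block, 5345 genes were called for EAE against Control, 722 for treated mice against EAE and 2272 for treated mice against Control, and 4 of the 7 genes (all but Miat of the 5) for EAE against Control. Depth limits Mirg most of the 8, with 402 to 792 counts in a library.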
